A study of Mus musculus with 14 samples.

Results

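The Dlx genes were examined as the 6 members of the family, Dlx1 to Dlx6, which lie in the mouse genome as 3 gene pairs. A deposited peak counted as a Dlx peak when at least 1 base of it lay within the gene body or 5 kb to either side (genome build mm10, GENCODE M21 annotation). By this rule 35 of the 23668 listed peaks belonged to the family, 12 of them at Dlx1-Dlx2, 11 at Dlx3-Dlx4 and 12 at Dlx5-Dlx6. The rule used positions only and no measured value.

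The data were H3K27me3 profiles from chromatin immunoprecipitation and sequencing (ChIP-seq) of primary hippocampal neurons of WT genotype, prepared according to the study from CD1 mouse embryos of mixed sex. Cultures received lipid nanoparticles carrying gapmers, antisense oligonucleotides that lead to the cleavage of a chosen nuclear RNA by RNase H. Gapmers with no target were the control, and gapmers against the long noncoding RNA NeuID were the knockdown. The labels list 6 ChIP libraries per condition and 1 input library for each. Both groups thus shared genotype, cell preparation and exposure to nanoparticles, and such cultures can hold cells other than neurons.

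Dlx genes encode homeodomain transcription factors related to the Distal-less protein of the fly. The genes of a pair are transcribed towards each other and share enhancers, many of them in the stretch between the genes. Dlx1, Dlx2, Dlx5 and Dlx6 act in the ganglionic eminences, where they drive the differentiation and migration of GABAergic interneurons, and Dlx5 and Dlx6 also pattern the lower jaw. Dlx3 is known for its roles in epidermis, hair, tooth and placenta, whereas Dlx4 has been described in the pharyngeal arches and placenta. Genes of this kind are classical targets of Polycomb repressive complex 2, which deposits H3K27me3 and keeps developmental genes silent in cells that do not use them.

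The sequences that carry the comparison are shown first. Of the Dlx genes, Dlx1 and Dlx2 are in the RefSeq promoter table (GRCm38.p6). Both lay wholly inside a strong Dlx peak, and the one of Dlx2 is printed because that of Dlx1 overlaps an untranslated exon in GENCODE. The other 4 sequences are the central 250 bases of peaks with large differences between the groups, read from the plus strand of GRCm38, the assembly that mm10 names. CpG dinucleotides are in capitals throughout. The first sequence is the 250 bases before the start of Dlx2, at chr2:71546755-71547004 on the minus strand, with 24 CpG and a GC content of 66.4%.
Dlx2 promoter: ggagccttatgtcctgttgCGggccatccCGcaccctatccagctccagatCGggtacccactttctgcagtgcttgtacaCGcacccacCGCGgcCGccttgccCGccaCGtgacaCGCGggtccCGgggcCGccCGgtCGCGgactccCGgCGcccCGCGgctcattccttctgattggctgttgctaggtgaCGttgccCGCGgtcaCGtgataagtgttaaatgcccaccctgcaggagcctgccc
The second comes from the intergenic stretch between Dlx1 and Dlx2, at chr2:71540890-71541139, and is the centre of the wide peak with the largest loss of normalized reads. It holds 16 CpG.
Dlx1-Dlx2 peak 9 centre: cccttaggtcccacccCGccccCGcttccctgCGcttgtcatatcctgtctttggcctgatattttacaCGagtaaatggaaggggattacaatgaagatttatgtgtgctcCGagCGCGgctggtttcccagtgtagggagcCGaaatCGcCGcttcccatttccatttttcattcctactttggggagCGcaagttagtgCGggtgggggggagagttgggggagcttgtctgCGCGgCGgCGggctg
The third, at chr2:71534714-71534963 in an intron of the antisense gene Dlx1as, is the centre of a peak that was higher in the knockdown, and holds 4 CpG.
Dlx1-Dlx2 peak 6 centre: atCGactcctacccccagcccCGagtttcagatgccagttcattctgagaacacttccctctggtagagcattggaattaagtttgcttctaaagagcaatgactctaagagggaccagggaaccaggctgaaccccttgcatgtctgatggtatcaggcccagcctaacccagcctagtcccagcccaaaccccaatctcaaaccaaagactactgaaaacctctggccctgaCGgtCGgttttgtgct
The fourth, at chr11:95148101-95148350 in an intron of the antisense gene Dlx4os, belongs to the peak with the largest log2 difference in the family. It holds 2 CpG.
Dlx3-Dlx4 peak 10 centre: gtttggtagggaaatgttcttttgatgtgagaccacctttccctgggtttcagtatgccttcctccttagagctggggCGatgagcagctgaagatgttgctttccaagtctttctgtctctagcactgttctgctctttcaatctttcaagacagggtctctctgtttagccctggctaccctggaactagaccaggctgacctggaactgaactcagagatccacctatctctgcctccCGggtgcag
The fifth lies between Dlx6 and Dlx5 at chr6:6873522-6873771 and holds 11 CpG at a GC content of 40.8%.
Dlx5-Dlx6 peak 8 centre: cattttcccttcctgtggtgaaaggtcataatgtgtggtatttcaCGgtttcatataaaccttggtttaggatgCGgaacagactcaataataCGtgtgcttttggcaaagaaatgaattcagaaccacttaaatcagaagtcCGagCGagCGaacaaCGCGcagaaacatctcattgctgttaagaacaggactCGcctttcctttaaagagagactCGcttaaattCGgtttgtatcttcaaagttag

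For each peak the authors deposited the log2 of the mean of normalized reads per library, over all libraries and for each group. All levels below are these authors' means, or their linear values summed over peaks, and no value per library accompanies them. The spread between replicates could therefore not be computed here. The authors' own comparison of the groups was not used, and every difference below is a description of group means with no test. The sum over all peaks of the series was 297738 normalized reads for the control and 289070 for the knockdown. The overall means carried the weights of 6 control and 5 knockdown libraries, so by these weights 1 knockdown library of the labels did not enter them. A figure of the study gives 5 per group for its H3K27me3 data, so the sources differ on the group sizes. Library depths were not analysed here. H3K27me3 does not report expression directly, but of 12 genes of neurons 3 had a peak within 1 kb of a gene start (Syt1, Slc17a7 and Neurod2), as had 3 of 12 genes of astrocytes, oligodendrocytes and microglia (Olig1, Olig2 and Sox10).

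To see how the family differed between control and knockdown, the linear means were summed over each pair. The Dlx1-Dlx2 pair carried 558.1 normalized reads in the control and 521.4 in the knockdown, a log2 ratio of -0.10. That direction rested on the intergenic peak 9, without which the pair went from 443.6 to 463.6, a log2 ratio of 0.06. The Dlx5-Dlx6 pair went from 427.0 to 349.7, a log2 ratio of -0.29. The Dlx3-Dlx4 pair stood at 319.4 in both groups, with a log2 ratio of -0.00018. The knockdown thus held 93.4% of the control signal at Dlx1-Dlx2 and 81.9% at Dlx5-Dlx6, against 97.1% over all peaks of the series. The 35 Dlx peaks together gave 1304.5 and 1190.5 normalized reads, or 91.3% of the control, and 95.2% without that peak.

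Per length of peak, all pairs were above the level of the whole series in both groups. Dlx5-Dlx6 had the densest signal in the control, with 29.7 normalized reads per kb over 14371 bp of peak, and 24.3 in the knockdown. Dlx1-Dlx2 had 28.1 and 26.3 over 19850 bp. Dlx3-Dlx4 was the least dense pair, with 23.3 in either group over 13707 bp. The whole series averaged 21.3 in the control and 20.7 in the knockdown. The order of the pairs in the control changed in the knockdown, where Dlx1-Dlx2 came first. Most peaks of the series were narrow. Among peaks at least 1 kb wide the series averaged 26.9 in the control and 25.1 in the knockdown. At that width Dlx1-Dlx2 had 28.8 and 27.7, and Dlx5-Dlx6 had 31.0 and 25.5. Dlx3-Dlx4 was below the series at that width, with 23.9 and 24.5.

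**Figure D1:**
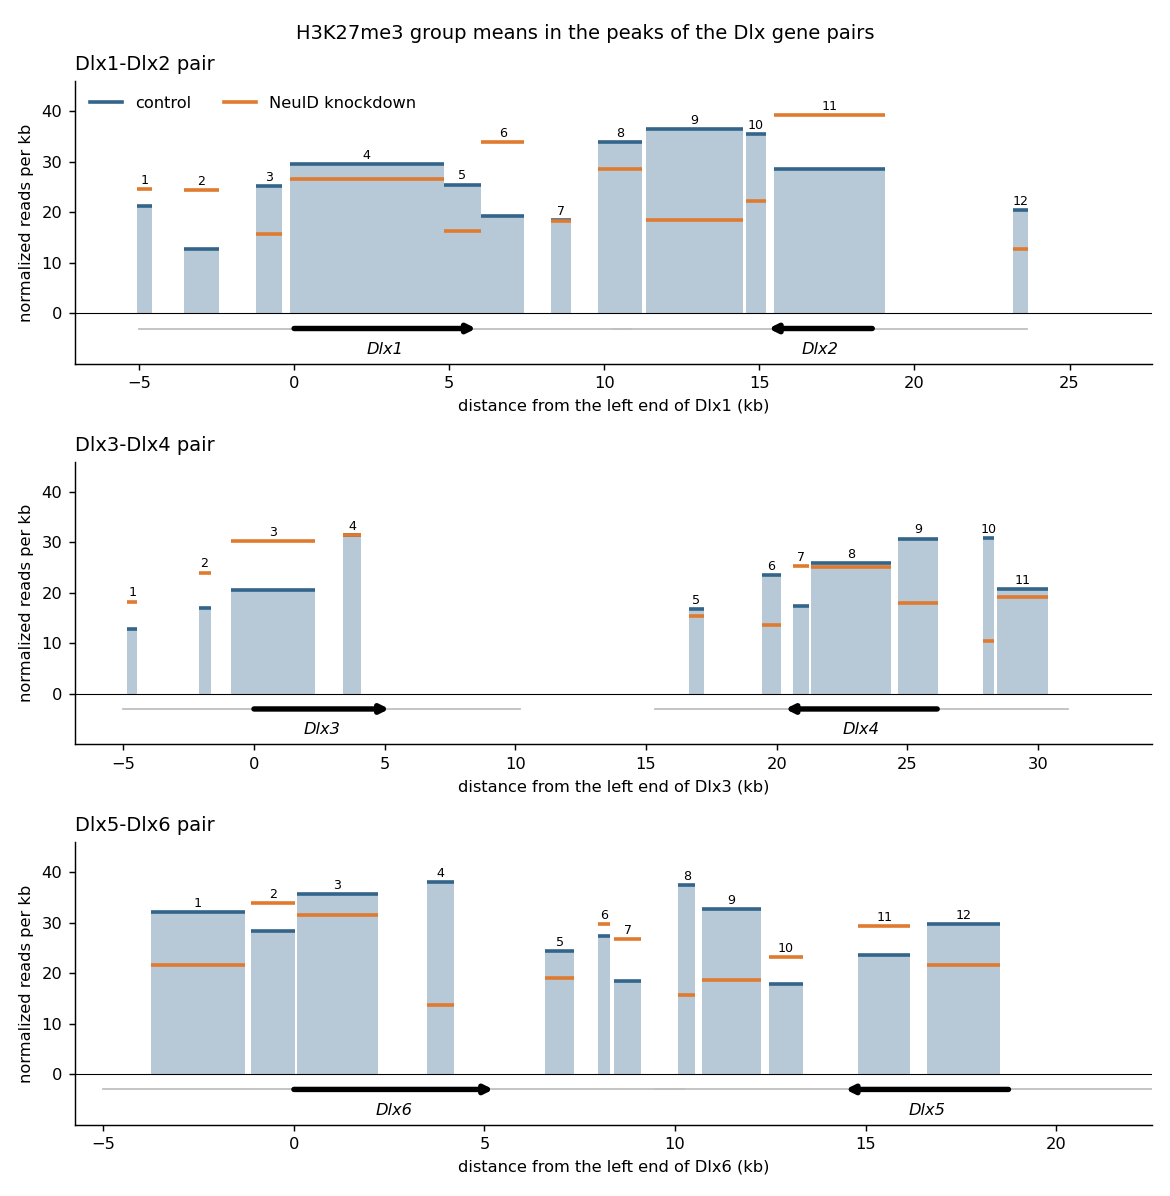
Peaks of the 3 Dlx pairs along the chromosome, in kb from the left end of the first gene of each panel, with normalized reads per kb of peak on the vertical axis. Shaded blocks and blue lines are the authors' control means, orange lines are the knockdown means, numbers name the peaks of a pair from left to right, thick arrows are gene bodies in the direction of transcription, and thin lines are the 5 kb windows. At Dlx1-Dlx2 the control is 36.5 and the knockdown 18.4 in peak 9, while peak 11 over Dlx2 goes from 28.6 to 39.3.

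At Dlx1-Dlx2 wide, strong peaks lay over both genes and between them. Peak 4, at chr2:71527968-71532935, covered the start and the coding exons of Dlx1 and had a log2 mean of 7.19 in the control and 7.05 in the knockdown. Peak 11, at chr2:71543597-71547150, covered the start of Dlx2 and its coding exons, with 6.67 and 7.13. The start of Dlx2 was therefore marked more strongly in the knockdown means and that of Dlx1 about equally in both. Peak 9, at chr2:71539449-71542582, spanned 3134 bp of the intergenic stretch and had 6.84 in the control and 5.85 in the knockdown, which is 114.5 against 57.8 normalized reads. It was the largest loss of reads in the family and exceeded the whole net loss of the pair.

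The other peaks of Dlx1-Dlx2 were weaker and went either way. Peak 6, at chr2:71534146-71535532 just past the end of Dlx1, had 4.75 in the control and 5.56 in the knockdown. Peak 2, at chr2:71524562-71525677, lay on an exon of the neighbouring gene Metap1d, a mitochondrial methionine aminopeptidase, and had 3.82 and 4.77, the largest upward difference of the family (0.95). Peaks 3, 5, 10 and 12 were each lower in the knockdown, by differences between -0.69 and -0.65. In all, 8 of the 12 peaks were lower and 4 were higher in the knockdown, and none differed by more than 1 on the log2 scale. Of all peaks of the series with both groups above 0, 11229 were lower and 10868 higher.

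At Dlx5-Dlx6 most of the wide peaks were lower in the knockdown. Peak 1, at chr6:6859593-6862043 upstream of Dlx6 and on an exon of the antisense gene Dlx6os1, had a log2 mean of 6.30 in the control and 5.73 in the knockdown. Peak 3, at chr6:6863409-6865541 in the 5′ part of Dlx6, had 6.25 and 6.07. Peak 12, at chr6:6879949-6881863 in the body of Dlx5, had 5.84 and 5.37. It ended short of the annotated start of Dlx5, which was the start in the family that no peak covered. Peak 2, which covered the start of Dlx6, was higher in the knockdown, at 5.29 against 5.04. So was peak 11, at chr6:6878133-6879512 over coding sequence of Dlx5, at 5.34 against 5.03.

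The intergenic stretch of this pair held a row of narrower peaks. Peak 8, at chr6:6873425-6873870, had 4.06 in the control and 2.81 in the knockdown. The adjacent peak 9, at chr6:6874046-6875592, was likewise lower, at 5.66 and 4.85. Peaks 7 and 10 on either side were higher in the knockdown, with differences of 0.54 and 0.38. Neighbouring peaks between the same genes thus moved in opposite directions. Peak 4, at chr6:6866833-6867524 over coding sequence and untranslated exon of Dlx6, had 4.72 and 3.25, a difference of -1.47. Over the pair, 7 of 12 peaks were lower and 5 were higher.

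The equal sums at Dlx3-Dlx4 came from opposite differences at the 2 genes. All 4 Dlx3 peaks had a higher mean in the knockdown, although in peak 4 the difference was 0.0044. Peak 3, at chr11:95119227-95122464 over the start of Dlx3, had a log2 mean of 6.06 in the control and 6.61 in the knockdown, or 66.7 and 97.7 normalized reads. At Dlx4, 6 of 7 peaks were lower. Peak 8, at chr11:95141438-95144485 over the gene body, was nearly equal at 6.30 and 6.26, whereas peak 9, at chr11:95144772-95146299 over the start of Dlx4, had 5.55 and 4.79. Peak 10, at chr11:95148016-95148436 upstream of Dlx4 within Dlx4os, had 3.70 and 2.14. Its difference of -1.55 was the largest of any Dlx peak, on means of 13.0 and 4.42 normalized reads.

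Differences beyond 1 on the log2 scale, that is beyond 2-fold, were then counted. Of the 35 Dlx peaks 3 were lower in the knockdown by this limit, namely Dlx3-Dlx4 peak 10 and Dlx5-Dlx6 peaks 4 and 8, against 18.5% of all peaks with both groups above 0. In the other direction 0 Dlx peaks passed, against 18.4% of all peaks. Most peaks of the series were weaker than the Dlx peaks, and weak peaks had the widest differences. Among peaks with an overall log2 mean of at least 4, 1 of 23 Dlx peaks was lower by the limit and 0 were higher, against 9.12% and 5.02% of all such peaks. A group mean listed at 0 occurred in 6.64% of all peaks and in 0 of the 35 Dlx peaks. At a smaller limit of 0.5, 12 Dlx peaks were lower and 7 were higher, against 32% and 30.9% of all peaks with both groups above 0.

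Overall 21 Dlx peaks were lower and 14 were higher in the knockdown, with a median difference of -0.13. The median over all peaks with both groups above 0 was -0.02, and it was -0.11 over those with an overall mean of at least 4. By direction, 11229 of all peaks with both groups above 0 were lower and 10868 higher. Of all peaks of that strength 1920 were lower and 1424 higher. For the 23 Dlx peaks of that strength the summed log2 ratio was -0.13, beside -0.11 for all 3344 peaks of that strength. Among peaks at least 1 kb wide the log2 ratio was -0.10 for 17 Dlx peaks and -0.10 for all 2301 peaks. By these sums the strong and the wide Dlx peaks were about as far below the control as other such peaks. Both Dlx sums hold the intergenic Dlx1-Dlx2 peak with the largest loss of reads (114.5 to 57.8). The strong sum went from 1169 to 1067 normalized reads and the wide sum from 1043.3 to 973.6. That peak thus held much of either net loss, so the likeness leaned on it. The ratios were not recomputed without it. The median difference of the strong Dlx peaks was lower, at -0.18 beside -0.11 for all strong peaks. For the wide Dlx peaks it was -0.15, beside -0.09 for all wide peaks. The sums of the weaker and of the narrower Dlx peaks were farther below the control than those of other weak or narrow peaks. The 12 Dlx peaks with an overall mean under 4 had a summed log2 ratio of -0.13, beside 0.01 for all peaks of that strength, and the 18 Dlx peaks under 1 kb had -0.27, beside -0.01 for all 21367 peaks under 1 kb. Of these, 6 of the 12 weak and 10 of the 18 narrow Dlx peaks were lower, and whether either gap exceeds replicate error was not tested. The weak sum, 135.0 to 123.3, leaned on Dlx3-Dlx4 peak 10 (13.0 to 4.42) and Dlx5-Dlx6 peak 8 (16.7 to 7.03). Their losses together exceeded its net loss, so the other weak Dlx peaks together were higher in the knockdown. The narrow sum, 261.2 to 216.9, includes both of these peaks and Dlx5-Dlx6 peak 4 (26.3 to 9.52). The losses at these peaks made up most of its net loss. Neither log2 ratio was recomputed without them. The median difference was 0.05 for weak Dlx peaks, beside 0.01 for all weak peaks, and -0.07 for narrow ones, beside -0.0037.

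**Figure D2:**
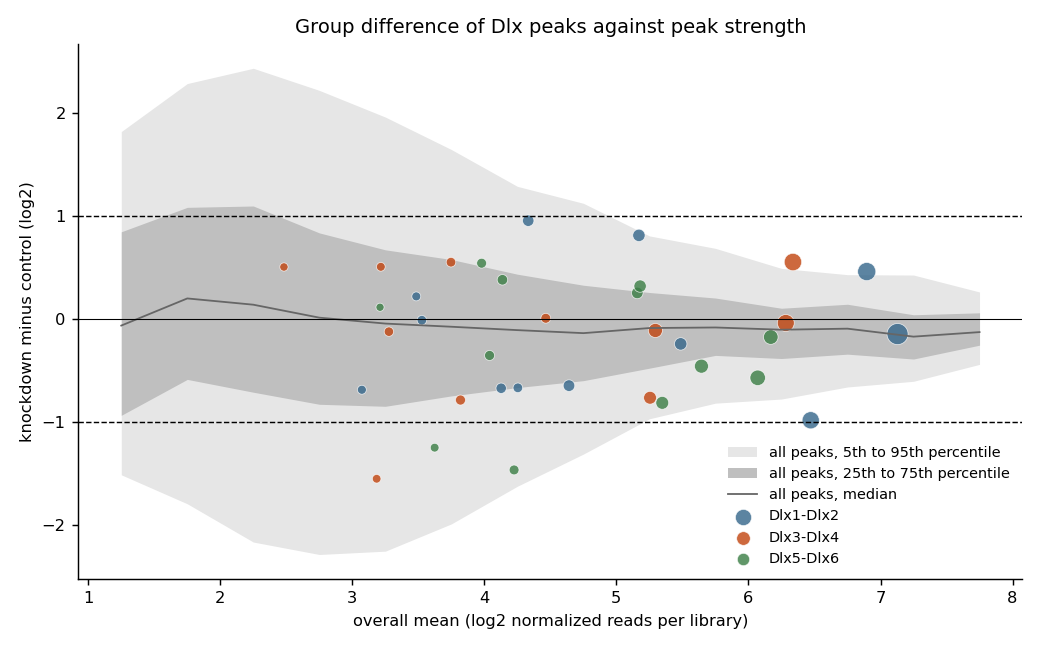
Difference between the authors' group means (knockdown minus control, log2) against the overall log2 mean of normalized reads, for the 35 Dlx peaks in colours by pair, with point area growing with peak width. Grey bands and line give percentiles and the median of all peaks with both groups above 0 in steps of 0.5 of the overall mean, and dashed lines mark differences of -1 and 1. Only 3 Dlx peaks lie below the lower dashed line and 0 above the upper one, and Dlx1-Dlx2 peak 9 lies just inside the lower line at -0.99.

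By gene, the windows were ordered by their summed signal in the control. Dlx1 had 308.6 normalized reads in the control and 303.0 in the knockdown over 8 peaks, and Dlx2 had 297.7 and 259.1 over 5. Dlx6 followed with 271.1 and 218.7 over 8 peaks, and Dlx4 with 218.1 and 181.8 over 7. These 4 genes were all lower in the knockdown means, with log2 ratios from -0.31 to -0.03. The lower sum of Dlx2 rested on Dlx1-Dlx2 peak 9, which by itself went from 114.5 to 57.8. The other Dlx2 peaks together were higher in the knockdown. Dlx5 had 172.6 and 138.0 over 5 peaks, the lowest log2 ratio of the family at -0.32. Dlx3 was the weakest gene in the control, with 101.3 over 4 peaks. With all peaks counted it was the only one of the 6 with a higher sum in the knockdown, at 137.6 and a log2 ratio of 0.44. Which neighbours in this order differ beyond replicate error cannot be read from group means. One peak lay in the windows of both Dlx1 and Dlx2 and another in those of both Dlx5 and Dlx6, and each was counted once per pair.

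**Figure D3:**
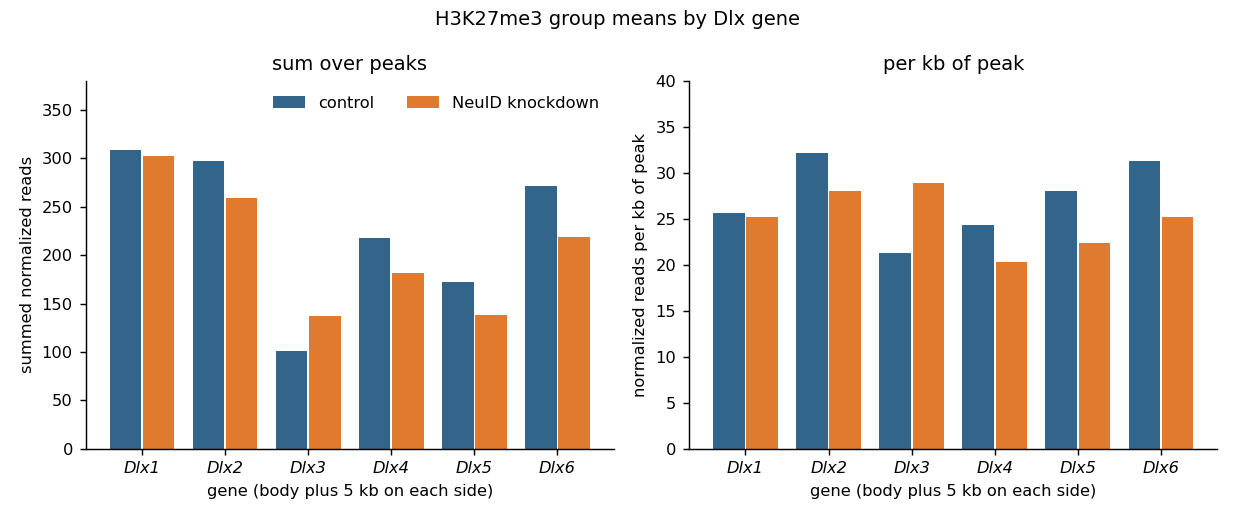
Sums of the authors' group means over the peaks of each Dlx gene window (left, normalized reads) and the same sums per kb of peak (right), control in blue and knockdown in orange. There are no error bars because the values used are group means. Dlx3 is the gene with a higher knockdown bar, at 28.9 against 21.3 normalized reads per kb.

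Among the 6147 protein-coding genes with a peak in such a window, the Dlx genes ranked high by control signal, at place 164 for Dlx1, 169 for Dlx2, 189 for Dlx6, 227 for Dlx4, 284 for Dlx5 and 501 for Dlx3. Their log2 ratios were not extreme among all of these genes, most of which had less signal. They lay between the 31.5th percentile, at Dlx5, and the 68.0th, at Dlx3. Weak signal goes with wider differences. The 5th to 95th percentiles of all peaks ran from -2.29 to 2.22 at overall means of 2.5 to 3. They ran from -0.66 to 0.43 at 6.5 to 7. These places therefore cannot show how the Dlx genes lie among genes of like signal, which was not tested. The gene outside the family with the most similar pair of summed means was Lhx6, an interneuron transcription factor, for Dlx1 and Slc18a3, the vesicular acetylcholine transporter, for Dlx2. It was Ush1g, a scaffold protein of inner ear hair cells, for Dlx3 and Shh, the Sonic hedgehog ligand, for Dlx4. For Dlx5 it was Fam241b and for Dlx6 it was the homeodomain factor Msx2. Likeness was the Euclidean distance on the log2 scale over the 2 group means only, and ranged from 0.019 for Shh to 0.079 for Ush1g.

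The differences were also split by position, over or outside the gene bodies, and over the gene starts, the latter after the values had been seen. The 13 peaks that overlapped a Dlx gene body summed to 728.8 normalized reads in the control and 729.2 in the knockdown, or 627.0 and 589.4 without Dlx1-Dlx2 peak 11. The 22 peaks outside the bodies summed to 575.7 and 461.3, or 80.1% of the control. Dlx1-Dlx2 peak 9 carried much of this, and the other 21 peaks went from 461.2 to 403.5, or 87.5%. Outside the bodies the log2 ratio was -0.24 for Dlx3-Dlx4 and -0.41 for Dlx5-Dlx6. For Dlx1-Dlx2 it was -0.28 with peak 9 and 0.06 without it. Within the bodies it was 0.06 for Dlx1-Dlx2 (-0.22 without peak 11), 0.09 for Dlx3-Dlx4 and -0.18 for Dlx5-Dlx6. The 5 peaks over a Dlx start summed to 394.9 in the control and 436.4 in the knockdown, with 3 higher and 2 lower. Without peak 11 the start peaks stood at 293.1 and 296.6. The other 30 went from 909.6 to 754.1, or from 795.1 to 696.3 without peak 9. These contrasts thus leaned on 2 peaks of Dlx1-Dlx2. Peaks in the bodies were also the wider ones, and the part of width in this split was not tested.

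Noncoding genes run through all 3 pairs. Dlx1as, antisense to Dlx1, overlapped 7 peaks, all of them Dlx peaks. Dlx6os1, the antisense RNA gene also known as Evf2, extends far from Dlx6 and overlapped 16 peaks, of which 10 lay outside the windows. Those 10 summed to 158.8 normalized reads in the control and 151.6 in the knockdown. Past the 2-fold limit 2 of them were lower and 0 higher, against 18.5% and 18.4% of all peaks with both groups above 0. In the knockdown 1 was listed at 0. Dlx4os overlapped 5 peaks, and the 2 outside the Dlx4 window summed to 24.5 and 9.49. Each was lower by more than the 2-fold limit, as were 18.5% of all peaks with both groups above 0.

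The window limit of 5 kb left out a close peak at each pair. At Dlx1-Dlx2 a peak at chr2:71551862-71552429 began 108 bp outside and had a log2 mean of 3.57 in the control and 1.72 in the knockdown. Just inside, the last member at chr2:71551290-71551787 had 3.35 and 2.66. At Dlx3-Dlx4 a peak at chr11:95151459-95151968 began 196 bp outside and had 3.65 and 2.45. This peak lies within Dlx4os and was counted there above. At Dlx5-Dlx6 a peak at chr6:6857494-6858275 ended 59 bp outside and had 4.61 and 4.25. The members just inside at these pairs were Dlx3-Dlx4 peak 11, with 5.35 and 5.23, and Dlx5-Dlx6 peak 1, given above. All 3 of these outer peaks were lower in the knockdown means, as were 11229 of the 22097 peaks of the series with both groups above 0. On the other side of each pair the next peak was farther off, at 54435 bp from the last member at Dlx1-Dlx2, 34996 bp at Dlx3-Dlx4 and 37011 bp at Dlx5-Dlx6.

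Dlx peaks were wider and stronger than most. Their median width was 870 bp against 426 bp over all peaks, 32 of 35 were wider than that overall median, and 7 of the 693 peaks of at least 2 kb in the series were Dlx peaks. The overall mean was above the series median in 34 of 35. Dlx peaks also held more CpG, the dinucleotide that marks unmethylated islands at developmental genes. The median ratio of observed to expected CpG was 0.384 in Dlx peaks and 0.218 in all peaks, and the median GC content was 52.7% and 49.2%. At a given width the difference was small, with 0.503 against 0.484 for peaks of at least 1 kb and 0.213 against 0.204 below 1 kb. The highest ratio of the family, 0.737, was that of the peak over Dlx2, whose promoter is printed above. Of the 32851 promoters in the RefSeq table, 88.0% had fewer CpG in the 250 bases before the start than Dlx2, and their median was 6.

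The values of the Dlx genes were then set beside other gene lists, as descriptions. In the programme of GABAergic neurons, 19 of 20 genes had a peak, and Zeb2 had none. Their 128 peaks summed to 94.9% of the control. Of the 124 with both groups above 0, 16 were lower and 14 higher past the 2-fold limit, against 18.5% and 18.4% of all such peaks, and the median difference was -0.03. Lhx6, a factor of interneurons from the medial ganglionic eminence, went from 316.0 to 307.0 normalized reads over 11 peaks. Nkx2-1, which acts upstream of Lhx6, went from 498.8 to 394.3, and Isl1, a factor of striatal neurons, from 378.0 to 328.1. Gad1 and Gad2, the enzymes that make GABA, differed in opposite directions, at 108.0 and 141.9 for Gad1 and 118.8 and 94.6 for Gad2. The sums of GABAergic genes therefore showed no common direction, with 12 genes below and 7 above the control.

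Partners of Dlx genes in the jaw and skeleton were mixed as well. All 12 of these genes had a peak, and 8 of them were above and 4 below the control, with 96.8% of the control signal in sum. Their peaks leaned the other way. Of the 88 with both groups above 0, 53 were lower and 35 higher, beside 11229 and 10868 of all such peaks. Their median difference was -0.20. Past the 2-fold limit 12 were lower and 8 higher, against 18.5% and 18.4% of all such peaks. Msx2 and Hand2, transcription factors of the pharyngeal arches and limb, were lower, at 275.8 against 213.0 and 365.6 against 282.1 normalized reads (control first). Hand1 was higher, at 261.1 and 315.3.

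Other developmental families had levels close to those of the Dlx genes. Signal per kb in the control was 26.9 for Pax, 26.4 for LIM homeobox and 29.6 for Nkx genes, beside 27.2 for Dlx, and in the knockdown 23.9, 25.1 and 26.7 beside 24.8. The summed log2 ratio was -0.17 at Pax genes, -0.15 at Nkx genes and -0.07 at LIM homeobox genes, so that the -0.13 of the Dlx genes lay within the range of these families. Peaks past the limit in each direction numbered 18 lower and 13 higher of 126 with both groups above 0 at Pax, 12 and 11 of 94 at LIM homeobox and 14 and 4 of 84 at Nkx genes, beside the same 18.5% and 18.4% of all peaks. The absence of any Dlx peak past the upper limit was thus not seen in these families, and whether it differs from them was not tested.

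**Figure D4:**
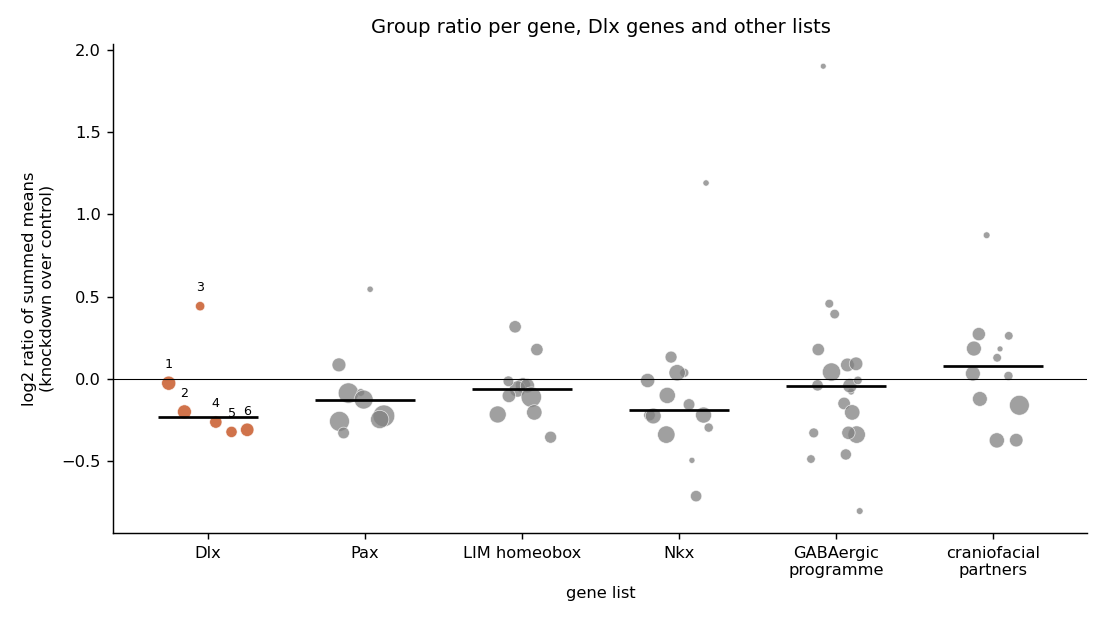
Log2 ratio of the summed authors' means (knockdown over control) for each gene with a peak, by gene list, with point area growing with the control sum and a black line at the median of each list. Numbers name the Dlx genes. Dlx3 lies at 0.44 and the other 5 Dlx genes at or below -0.03, and most genes of the other lists fall in the same range.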

How the data were processed

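Group means of H3K27me3 ChIP-seq in hippocampal neurons with control or NeuID gapmers were analysed, with groups taken from the sample titles. Per the labels and the study's methods, reads (single-end) were mapped to mm10 with Bowtie2 and broad peaks were called with MACS2. The authors then compared the groups in DiffBind, for which the authors used its DESeq2 option. Versions of Bowtie2, MACS2 and DiffBind, library normalization, removal of duplicates and treatment of input were not given in the sources used here. The deposited log2 values are the authors' means of normalized reads per library and peak, over all libraries and per group. The deposited table also holds the fold change, p-value and FDR of the authors' own comparison, which were not used. The number of other per-sample columns left unused was 0. Depth per library was not analysed here, so the counting error behind a value is unknown.

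The weight of the control in the overall mean was 0.545 in the 22096 peaks where it could be solved, the weight that 6 control and 5 knockdown libraries give, and no other combination of the labelled numbers or fewer. Group differences were taken as knockdown minus control on the log2 scale. Sums over peaks used linear means, and peaks listed at 0 were counted apart. Of the peaks 23642 lay within the GRCm38 chromosomes and 26 on scaffolds. The genes named were all Dlx genes, the noncoding genes in their windows, the most similar gene of each, and genes of other lists with many peaks or a peak past the limit. These members and lists were chosen with earlier results of these data known. Alternatives were other windows, a strength filter, centring, another limit and a pseudocount. Scripts were tested on simulated data. Python 3.11.15, numpy 2.4.6, pandas 2.3.3 and matplotlib 3.10.9 were used.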

Additional observations from a re-analysis of the deposited data

How the results depend on the processing

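No paired analysis was possible because group means were used here, and for the same reason no replicate could be left out in turn. Of the recomputed values, 45 kept their direction and size within the limits set, 6 turned direction and 7 moved. For log2 values the limit was a change of 0.1, which is large beside these ratios. The ratio of all Dlx peaks thus counted as kept when it went from -0.13 to -0.07 without Dlx1-Dlx2 peak 9. Some settings could not change a value, since they left its peaks the same or found no Dlx group mean at 0. The 45 are therefore no measure of stability. With peaks over the gene bodies only, the log2 ratio turned to 0.065 at Dlx1-Dlx2, 0.090 at Dlx3-Dlx4 and 0.00075 for all Dlx peaks, and moved to -0.18 at Dlx5-Dlx6. This setting leaves out the 22 flanking and intergenic peaks. At Dlx3-Dlx4, whose ratio was close to 0, it also turned to 0.035 when peaks with an overall mean below 4 were left out and to 0.018 after centring on the median of all peaks, and moved to -0.19 without the strongest peak, which is peak 3 over the start of Dlx3. The number of Dlx peaks lower past the limit was 1 of 13 over gene bodies only and 8 of 48 with windows of 20 kb (18.5% of all peaks). It was 1 of 23 with an overall mean of at least 4 (9.12% of all such peaks) and 12 of 35 at a limit of 0.5 (32% of all peaks). At that limit 7 were higher (30.9% of all peaks). Windows drawn over the whole span of a pair gave the same peaks. Keeping only peaks wholly inside a window and leaving out Dlx1-Dlx2 peak 9 were chosen after seeing the data. The former turned or moved none of the values recomputed under it, and the latter turned the Dlx1-Dlx2 ratio to 0.064. Apart from these constructions, the cause was not tested. Depth per library was not analysed here, and narrow peaks rest on few normalized reads.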
